A study of Mus musculus with 19 samples.

Results

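The 9 genes described here are the receptors of vascular endothelial growth factors (Flt1, Kdr and Flt4), their ligands (Vegfa, Vegfb, Vegfc and Pgf) and the neuropilin co-receptors (Nrp1 and Nrp2), measured by RNA sequencing in primary mouse sarcomas. They were picked by symbol from a table of 48795 gene IDs, and all 9 were found in it. Flt1 was selected on its difference between the genotypes compared, so that difference is described without a test, and the other 8 genes were chosen for their family.

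The study induced p53/MCA sarcomas in the gastrocnemius muscle of mice that were 6 to 10 weeks old at injection. An adenovirus carried Cas9 and a guide against Trp53, and 300 µg of the carcinogen 3-methylcholanthrene (MCA) in sesame oil, at 6 µg/µl, followed at the same site. There were 11 tumors from Rag2-/- mice, which form no mature T or B cells, and 8 from Rag2+/- mice, their lymphocyte-bearing controls. Tumors of both genotypes carried the same Trp53 guide and the same MCA dose, none had been treated, and all were collected at a volume of about 70 to 150 mm3. Each library is 1 whole tumor from 1 mouse, so its RNA mixes tumor cells with vessels, immune cells and muscle of the host.

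Vascular endothelial growth factors are secreted proteins that bind receptor tyrosine kinases on endothelial cells and drive the growth and leakiness of vessels. KDR carries most of the signal of VEGFA in blood vessels, whereas FLT1 binds VEGFA tightly with weak kinase activity and, also as a soluble form, limits how much VEGFA reaches KDR. FLT1 is the receptor of VEGFB and of placental growth factor (PGF), FLT4 is the receptor of VEGFC in lymphatic vessels, and the neuropilins bind the growth factors and class 3 semaphorins beside the receptors. Skeletal muscle is rich in capillaries and in mitochondria, and VEGFB is abundant in tissues of that kind.

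Values are the deposited log2 of upper-quartile normalized FPKM (fragments per kilobase of transcript, scaled by the size of the library) after 0.1 had been added, so a gene without a fragment reads the log2 of 0.1. The depth, estimated from the steps between low values, was 5.19 M fragments in 1 Rag2-/- tumor (S41) and 24.65 to 33.5 M in the other 18. The members rested on an estimated 137 to 2245 fragments per tumor for Flt1, 150 to 2368 for Kdr, 104 to 2236 for Vegfb and, for the least abundant gene, 22 to 444 for Pgf. The T cell gene Cd3e was at the lowest value in all 11 Rag2-/- tumors and averaged 1.47 ± 1.17 (SD, n = 8) in Rag2+/- tumors. Rag2 itself read higher in tumors labelled Rag2-/-, at -0.34 ± 0.74 (SD, n = 11) against -1.31 ± 0.70 (SD, n = 8), and a value over the whole gene does not show whether the deleted part was transcribed. Trp53 was at 4.31 ± 0.44 (SD, n = 11) and 4.52 ± 0.91 (SD, n = 8).

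The content of other tissues differed between tumors. The skeletal muscle score, the mean log2 value of 18 muscle genes, ran from 3.77 to 11.26 with Rag2-/- and from 5.95 to 12.48 with Rag2+/-, with means of 7.45 ± 2.0 (SD, n = 11) and 9.63 ± 2.44 (SD, n = 8). All 18 muscle genes had lower means in Rag2-/- tumors, with a median difference of -2.22 against 0.06 over all genes tested. A score of 18 genes of blood vessel endothelium ran from 2.47 to 4.36 in Rag2-/- tumors and from 2.85 to 3.83 in Rag2+/- tumors, and 16 of the 18 genes had lower means in the Rag2-/- group, with a median difference of -0.31. No muscle or endothelial gene of these lists was at the lowest value in any tumor. In such bulk samples, fewer cells of a type and less RNA per cell cannot be told apart. Of the tumors named below, S46 (Rag2-/-) had the highest endothelium score and S56 (Rag2+/-) the highest muscle score and the next highest endothelium score.

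Flt1 (ENSMUSG00000029648) lies on the minus strand of chromosome 5 of GRCm38, at chr5:147561604-147726011. In Rag2-/- tumors its log2 value had a lowest of 1.67 (S48), a median of 2.09 and a highest of 3.74 (S46), and in Rag2+/- tumors a lowest of 2.41 (S53), a median of 2.94 and a highest of 4.10 (S56). Of the 11 Rag2-/- tumors, 9 lay below every Rag2+/- tumor, and the groups overlapped through S46 and S51 (3.04). Its mean was 2.28 ± 0.61 (SD, n = 11) in the former group and 3.03 ± 0.49 (SD, n = 8) in the latter. They differed by -0.75 (SE 0.25), or 1.68-fold, with Rag2-/- the lower. This is the difference by which the gene was chosen. Without S41, S46, S51 and S56, which are not among the 15 tumors of the study's per-tumor figure, the highest Rag2-/- value was 2.40 and the lowest Rag2+/- value 2.41, and the difference was -0.85 (SE 0.14). Flt1 was thus the 1 member of 9 without overlap in these 15 tumors, where 0.211% of the 12826 genes tested had none. Nothing is read from this count, since the same difference chose Flt1 and both Rag2-/- tumors that overlapped, S46 and S51, are left out of the 15. With all 19 tumors 0 of 9 members and 0.0156% of genes were apart.

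The Flt1 difference was smaller beside the tissue scores. With the muscle score as a covariate it was -0.44 (SE 0.25), with the endothelium score -0.48 (SE 0.18), and with the value of Xist, which follows the sex that the labels do not give, -0.54 (SE 0.21). Leaving out each tumor in turn gave -0.89 to -0.60. The part that muscle, vessels or sex have in the difference was not tested.

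**Figure D1:**
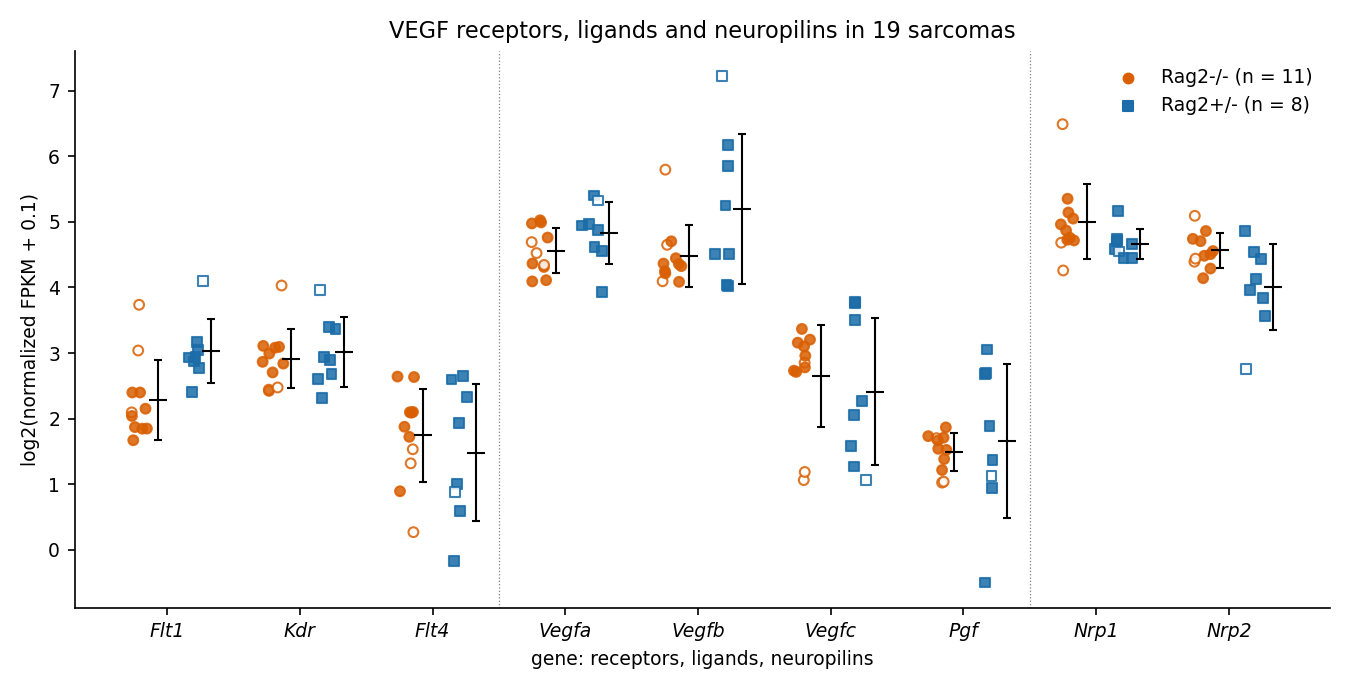
Log2 normalized FPKM (vertical axis) of the 3 receptors, 4 ligands and 2 neuropilins in 11 Rag2-/- tumors (orange circles) and 8 Rag2+/- tumors (blue squares), with open symbols for S41, S46, S51 and S56 and black bars for mean ± SD. Flt1 was 2.28 in Rag2-/- and 3.03 in Rag2+/- tumors on average, and the ranges of the genotypes overlapped for all 9 genes.

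Kdr (ENSMUSG00000062960, chr5:75932827-75978458, minus strand), the main signaling receptor of blood vessels, was at like levels in both genotypes. Its log2 value in Rag2-/- tumors had a lowest of 2.42 (S44), a median of 2.87 and a highest of 4.03 (S46), and in Rag2+/- tumors a lowest of 2.31 (S59), a median of 2.91 and a highest of 3.96 (S56). The ranges covered each other almost entirely. The difference was -0.10 (SE 0.22, limma adjusted p = 0.78), and in the 15 tumors it was 0.0058. Flt4 (ENSMUSG00000020357, chr11:49609263-49652739, plus strand), the receptor of lymphatic vessels, was lower and more variable, at 0.27 (S51), 1.87 and 2.64 (S50) for the lowest, median and highest Rag2-/- tumor and at -0.17 (S59), 1.47 and 2.65 (S55) for the Rag2+/- tumors. Its difference was 0.27 (SE 0.39, limma adjusted p = 0.68), and with the muscle score as a covariate it turned to -0.26 (SE 0.35). Leaving out each tumor gave 0.030 (without S59) to 0.43 for Flt4.

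Among the ligands, Vegfa (ENSMUSG00000023951, chr17:46016993-46032369, minus strand), the main vessel growth factor and a target of hypoxia signaling, varied little. It ran from 4.09 (S43) through a median of 4.52 to 5.03 (S47) in Rag2-/- tumors and from 3.93 (S52) through 4.91 to 5.40 (S54) in Rag2+/- tumors, with a difference of -0.27 (SE 0.18, limma adjusted p = 0.41). Vegfb (ENSMUSG00000024962, chr19:6982473-6987651, minus strand), a ligand of FLT1 alone among the receptors, reached the highest single value of the ligands. Its values were 4.09 (S44), 4.36 and 5.80 (S51) in Rag2-/- tumors and 4.02 (S55), 4.88 and 7.23 (S56) in Rag2+/- tumors, again as lowest, median and highest. The groups overlapped, 3 Rag2+/- tumors lay above every Rag2-/- tumor and 2 below, and the difference of -0.72 (SE 0.36) did not pass (limma adjusted p = 0.32). With the muscle score as a covariate the Vegfb difference was -0.09 (SE 0.27), and it was -0.43 without S56, the end of a range of -0.88 to -0.43 over the tumors left out in turn.

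Vegfc (ENSMUSG00000031520, chr8:54077606-54187096, plus strand), the lymphatic growth factor, was at 1.06 (S46), 2.85 and 3.37 (S49) in Rag2-/- tumors and at 1.06 (S56), 2.17 and 3.78 (S58) in Rag2+/- tumors. Its lowest values were thus in the tumors with the highest endothelium scores of each genotype. Pgf (ENSMUSG00000004791, chr12:85166635-85177790, minus strand), the placental growth factor, was at 1.02 (S46), 1.54 and 1.87 (S44) in Rag2-/- tumors, a narrow range that lay inside the -0.50 (S52) to 3.05 (S54) of the Rag2+/- tumors, whose median was 1.63. Neither gene was called between genotypes, with differences of 0.24 (SE 0.41, limma adjusted p = 0.73) for Vegfc and -0.16 (SE 0.35, limma adjusted p = 0.78) for Pgf. Beside the muscle score they were -0.32 (SE 0.38) and -0.56 (SE 0.35). Over the tumors left out in turn the Vegfc difference ran from 0.042 (without S56) to 0.43, and that of Pgf from -0.47 to 0.036 (without S54).

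Both neuropilins had higher means in the Rag2-/- group. Nrp1 (ENSMUSG00000025810, chr8:128358604-128503363, plus strand) ran from 4.26 (S51) through 4.87 to 6.49 (S46) in Rag2-/- tumors and from 4.45 (S52) through 4.62 to 5.17 (S55) in Rag2+/- tumors, a difference of 0.34 (SE 0.21, limma adjusted p = 0.37) that was 0.19 without S46. With the endothelium score as a covariate the Nrp1 difference was 0.53 (SE 0.17), with an unadjusted limma p of 0.0060 and an adjusted p of 0.39, and with the muscle score 0.14 (SE 0.22). Nrp2 (ENSMUSG00000025969, chr1:62703285-62818695, plus strand) ran from 4.14 (S47) through 4.51 to 5.09 (S46) against 2.75 (S56), 4.04 and 4.86 (S55), and 5 of the 8 Rag2+/- tumors lay below every Rag2-/- tumor. The Nrp2 difference was 0.55 (SE 0.21), with an unadjusted limma p of 0.017 and an adjusted p of 0.30. In all, 0 of the 8 members other than Flt1 passed an adjusted p of 0.05 for genotype, against a background of 0.0312% of genes (4 of 12826, namely Igkc, Igha, Tnfrsf18 and Cd2, all genes of lymphocytes and lower in Rag2-/- tumors). At an unadjusted p under 0.05, 1 of the 8 passed (Nrp2), against 16.3% of all genes.

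**Figure D2:**
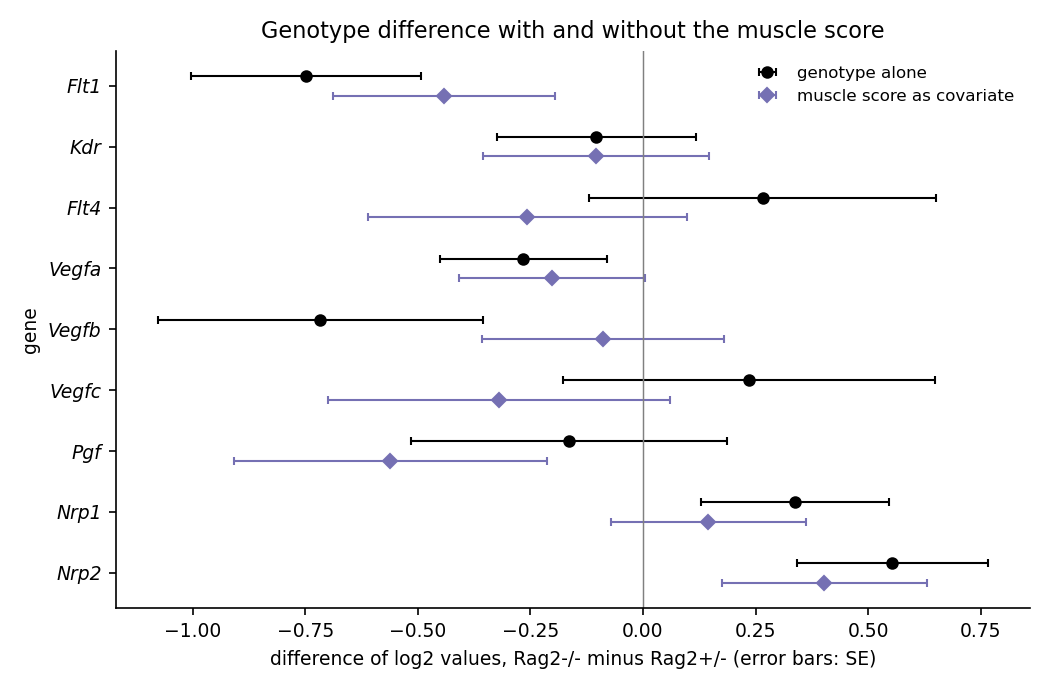
Difference of log2 values between Rag2-/- and Rag2+/- tumors (horizontal axis, n = 11 and n = 8, error bars are SE) for the 9 genes, from limma with genotype alone (black circles) and with the muscle score as a covariate (purple diamonds). With the covariate, Flt1 moved from -0.75 to -0.44 and Vegfb from -0.72 to -0.09, while Flt4 and Vegfc changed sign.

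Because FPKM is scaled by gene length, the levels of the members can be ordered. Over the 19 tumors the mean log2 level was 4.86 for Nrp1, 4.78 for Vegfb, 4.68 for Vegfa, 4.33 for Nrp2, 2.96 for Kdr, 2.60 for Flt1, 2.55 for Vegfc, 1.63 for Flt4 and 1.56 for Pgf. Neighbors in this order were compared within tumors by an exact sign-flip permutation test, two-sided and adjusted over the 6 pairs of 8 that do not hold Flt1, whose values chose it. Nrp2 was above Kdr by 1.37 ± 0.71 (SD over tumors) in 18 of 19 tumors (exact permutation p = 2.29e-05, adjusted p = 8.01e-05), and Vegfc was above Flt4 by 0.92 ± 0.61, also in 18 of 19 (p = 2.67e-05, adjusted p = 8.01e-05 by the same exact test). The other 4 pairs tested were not told apart, with adjusted p from 0.18 to 0.77 in the exact permutation test. On average Flt1 lay below Kdr by 0.36 ± 0.56 and above Vegfc by 0.05 ± 1.45 (SD over tumors). Kdr was above Flt1 in 14 of 19 tumors and Flt1 above Vegfc in 7 of 19, and neither pair was tested.

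The order of Flt1 and Kdr was not the same in all tumors. Flt1 was above Kdr in 1 of 11 Rag2-/- tumors, S51, and in 4 of 8 Rag2+/- tumors, and the log2 difference of Flt1 minus Kdr ran from -1.04 to 0.56 and from -0.60 to 0.86, with means of -0.63 ± 0.48 (SD, n = 11) and 0.012 ± 0.47 (SD, n = 8). On the linear scale Flt1 made up 22.6% to 55.3% of the summed normalized FPKM of the 3 receptors in Rag2-/- tumors, with a median of 28.4%, and 29.1% to 61.3% in Rag2+/- tumors, with a median of 39.8%. These differences and shares contain the Flt1 difference itself and were not tested between genotypes.

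In a fit with genotype as a term, Flt1 and Vegfb rose with the muscle score, whereas Flt4, Vegfc and Pgf fell and Kdr had a slope close to 0. The slopes are shared by both genotypes, so the difference that chose Flt1 does not enter them, and they are in log2 units of the gene for each log2 unit of the score. Flt1 had a slope of 0.14 (SE 0.052, limma adjusted p = 0.029), a rise of 10.2% for each unit. Vegfb had a slope of 0.29 (SE 0.057, limma adjusted p = 3.91e-04), a rise of 22%. For Flt4 the slope was -0.24 (SE 0.075, limma adjusted p = 0.011), for Vegfc -0.25 (SE 0.080, limma adjusted p = 0.012) and for Pgf -0.18 (SE 0.073, limma adjusted p = 0.043). Kdr had a slope of -0.00051 (SE 0.053, limma adjusted p = 0.99), Vegfa 0.03 (SE 0.043, adjusted p = 0.59), Nrp1 -0.09 (SE 0.046, adjusted p = 0.11) and Nrp2 -0.07 (SE 0.048, adjusted p = 0.23) in the same fit. The scale of the values also differed between tumors. By the depth estimate, 1 fragment per kilobase stood for 0.0564 to 0.0857 normalized FPKM in the tumors richest in muscle (S51, S52, S56, S59 and S60). In the others it stood for 0.0344 to 0.0423, apart from S41 (0.2101). The part of this scaling in the slopes was not tested. Xist was low in each of the tumors named as richest in muscle. No slope on the muscle score was fitted with Xist as a covariate, so the part of sex was not tested either.

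The call of Pgf was the least stable, as it was lost without any 1 of 8 tumors, with slopes of -0.20 to -0.16 in those fits. Fitted in each genotype, the Pgf slope was -0.04 (SE 0.047) in Rag2-/- and -0.32 (SE 0.15) in Rag2+/- tumors, a difference of 0.28 (SE 0.14) with an unadjusted p of 0.051 and an adjusted p of 0.40 in limma. The same slopes were -0.13 (SE 0.11) and -0.34 (SE 0.11) for Flt4 and -0.17 (SE 0.12) and -0.34 (SE 0.13) for Vegfc, with limma adjusted p of 0.56 and 0.68 for the difference. Without S51 neither Flt4 nor Vegfc was called (limma adjusted p = 0.054 and 0.052), with slopes of -0.20 and -0.22.

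Genes of mesenchymal cells moved beside the members that fell. Of a list of 8, 5 fell with the muscle score and 0 rose, against 30.3% and 24.5% of all genes. Among those that fell were the collagen genes Col1a2 at -0.29 (limma adjusted p = 0.0010) and Col3a1 at -0.18 (limma adjusted p = 0.013) and the growth factor receptor gene Pdgfra at -0.32 (limma adjusted p = 0.0037). The score of this list ran from 5.83 to 7.96 in the Rag2-/- group and from 6.28 to 8.49 in the other, no gene of it was at the lowest value in any tumor, and 0 of the 8 were called by genotype against 0.0312% of all genes, with a median difference of 0.32 against 0.06 over all genes. Its part in the slopes of Flt4, Vegfc and Pgf was not tested.

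Thus 5 of 9 members passed, 2 rising and 3 falling, against a background of 54.8% of 12808 genes, of which 24.5% of all genes rose and 30.3% fell. A share so near the background is not a result about the members as a group. In the 15 tumors, 2 of the 9 passed, Flt1 at 0.098 (limma adjusted p = 0.010) and Vegfb at 0.20 (limma adjusted p = 0.0083), against a background of 45% of genes in that fit (5761 of 12808). Without S51, the Rag2-/- tumor richest in muscle, 1 passed (Vegfb) against 45% of genes (5764), and without S56, 3 passed against 51% (6534). The Flt1 slope had an adjusted p over 0.05 in limma without S48 (0.060), S51 (0.089), S53 (0.069) or S56 (0.088), with values of 0.11 to 0.16 over all tumors left out.

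**Figure D3:**
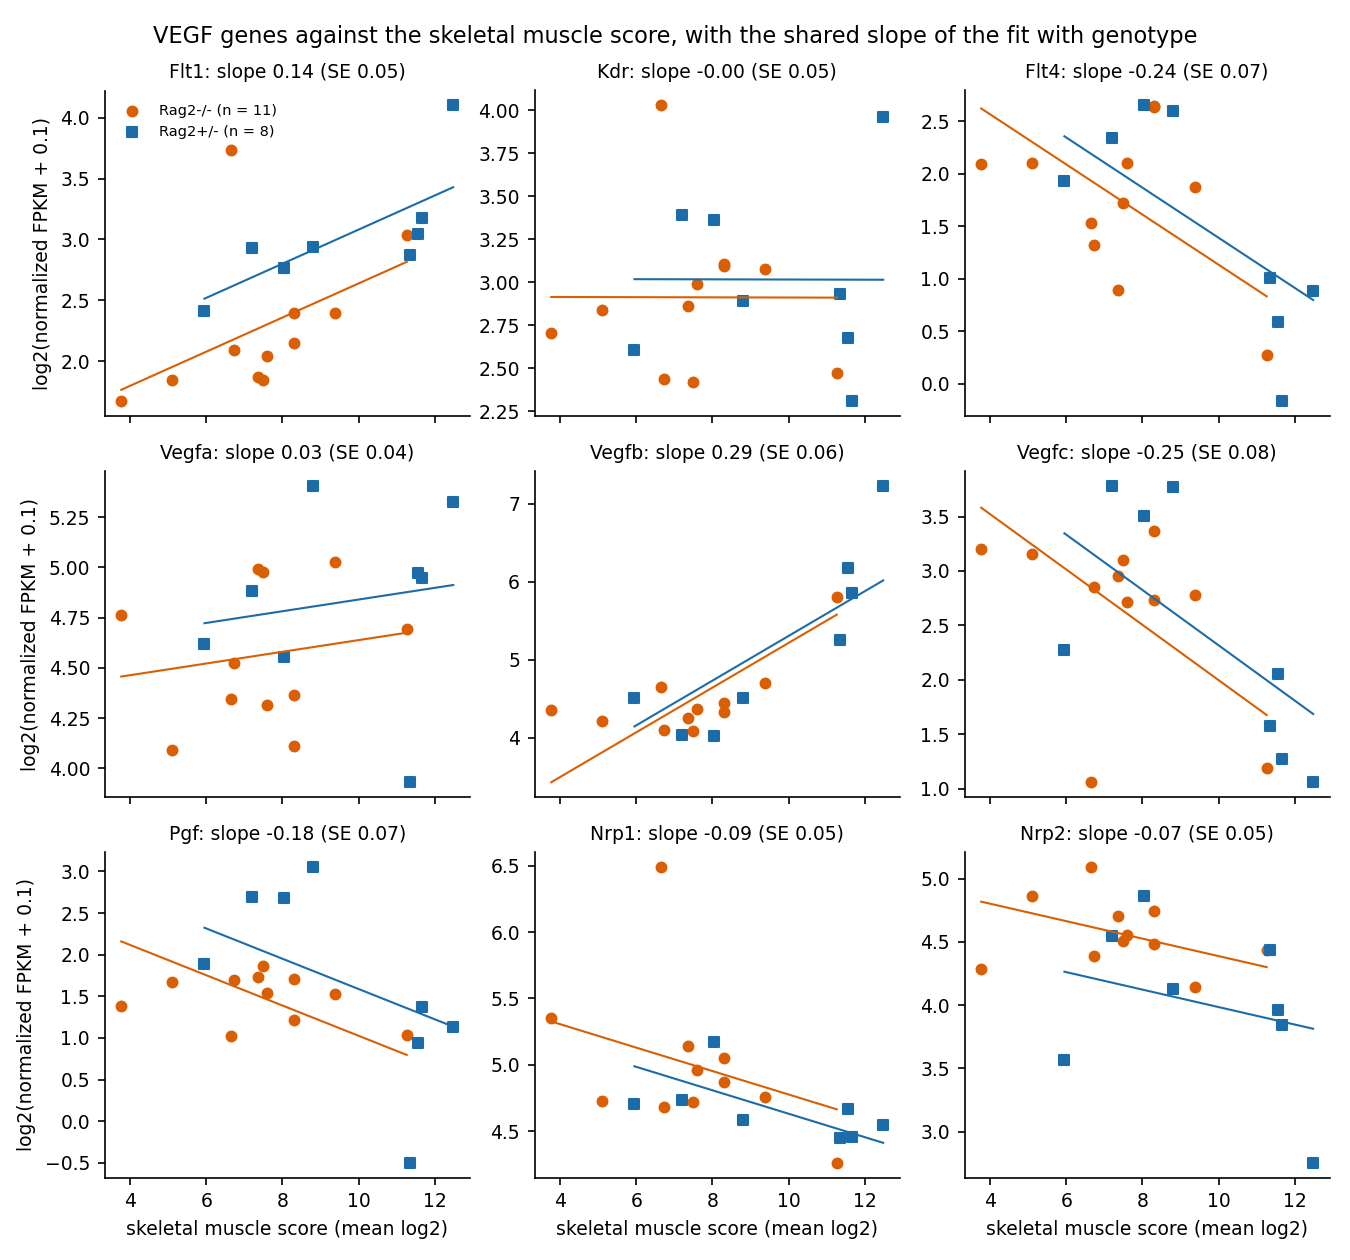
Log2 normalized FPKM of each of the 9 genes (vertical axes) against the skeletal muscle score (horizontal axis, mean log2 value of 18 muscle genes) in 11 Rag2-/- (orange circles) and 8 Rag2+/- tumors (blue squares), with lines of the slope shared by both genotypes. Vegfb has the steepest rise (0.29), Flt1 a rise of 0.14, Kdr a line close to level, and Flt4, Vegfc and Pgf fall.

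The values behind the Vegfb slope fell into a simple order. The 5 tumors with a muscle score of 11.26 or more (1 Rag2-/-, S51, and 4 Rag2+/-, S52, S56, S59 and S60) were the 5 with the highest Vegfb, at 5.25 or more, while the other 14 tumors had muscle scores of up to 9.38 and Vegfb of up to 4.70. Xist was low, at -1.83 (S52) or below, in these 5 tumors and in S46, S49, S50 and S58. In the rest it ran from 2.996 (S55) to 4.34 (S43). The part of sex in this order, and in the ligand shares given below, was not tested. Fitted in each genotype, the Vegfb slope was 0.16 (SE 0.059) in Rag2-/- and 0.41 (SE 0.096) in Rag2+/- tumors, a difference with an unadjusted p of 0.027 and an adjusted p of 0.35 in limma. For Flt1 the slopes were 0.13 (SE 0.092) and 0.15 (SE 0.056), and their difference of -0.01 (SE 0.11) had a limma adjusted p of 0.97. Slopes that differed between genotypes were found for 0 of 12808 genes in this limma fit.

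The share of each ligand of FLT1 followed the same tumors. Of the summed normalized FPKM of Vegfa, Vegfb and Pgf, Vegfb made up 32.6% to 66.7% in Rag2-/- tumors (median 46.7%) and 31.0% to 78.0% in Rag2+/- tumors (median 54.1%). The highest shares were in S56 (78.0%), S52 (70.7%), S60 (68.6%), S51 (66.7%) and S59 (63.5%), the 5 tumors richest in muscle RNA. Pgf made up 2.35% to 7.98% of this sum in the first group and 1.09% to 13.7% in the second. Vegfb exceeded Vegfa in 5 of 11 Rag2-/- and 4 of 8 Rag2+/- tumors.

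**Figure D4:**
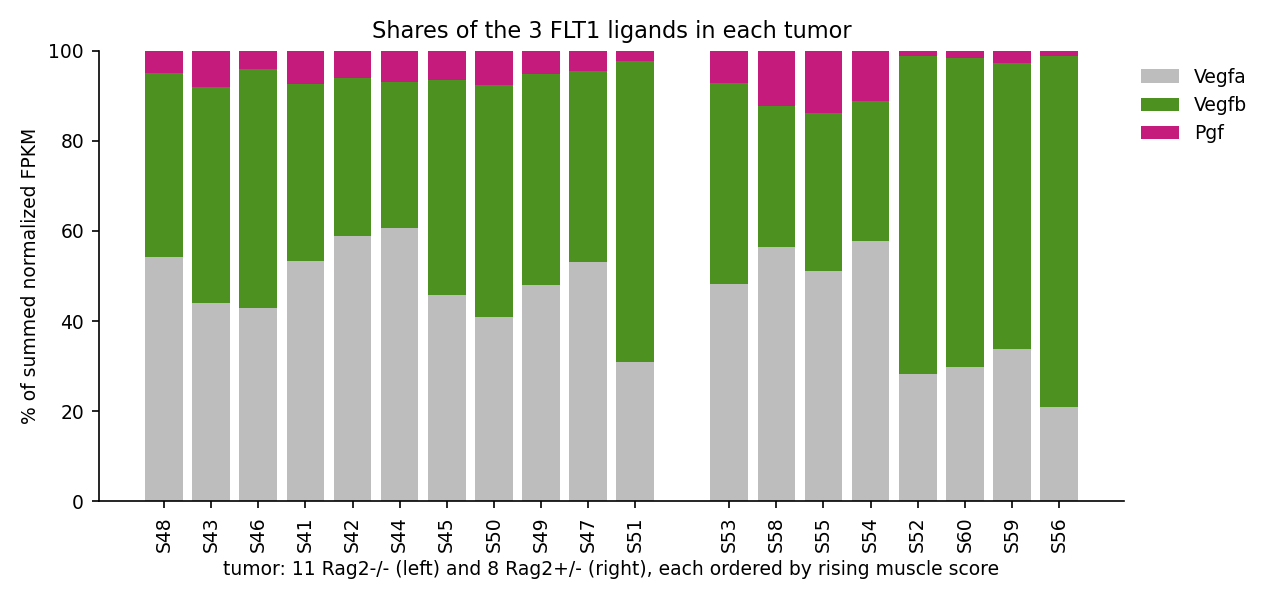
Shares of Vegfa (grey), Vegfb (green) and Pgf (pink) in their summed normalized FPKM (vertical axis, percent) in each tumor, the 11 Rag2-/- tumors at the left and the 8 Rag2+/- tumors at the right, each ordered by rising muscle score. The last Rag2-/- tumor (S51) and the last 4 Rag2+/- tumors have the largest Vegfb shares, from 63.5% to 78.0%.

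Promoter sequence is shown for Flt1 and Vegfb, which rose together with the muscle score, and for Kdr, whose slope was close to 0. The windows are the 250 bases before the transcription start in RefSeq on GRCm38.p6, and windows were found for 9 of 9 members. All 3 genes are on the minus strand, and the sequence is given 5′ to 3′ along the gene. Capitals mark a cAMP response element (TGACGTCA), the ETS core AGGAAG, the TATA box TATAAA and the hypoxia response cores ACGTG and GCGTG, searched on both strands, so that CACGC is GCGTG on the other strand.
Flt1, chr5:147726012-147726261: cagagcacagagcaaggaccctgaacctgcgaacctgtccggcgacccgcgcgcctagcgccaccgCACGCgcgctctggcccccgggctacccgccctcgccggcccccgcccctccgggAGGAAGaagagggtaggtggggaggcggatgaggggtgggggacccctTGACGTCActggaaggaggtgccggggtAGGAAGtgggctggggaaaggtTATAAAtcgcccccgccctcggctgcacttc
Kdr, chr5:75978456-75978705: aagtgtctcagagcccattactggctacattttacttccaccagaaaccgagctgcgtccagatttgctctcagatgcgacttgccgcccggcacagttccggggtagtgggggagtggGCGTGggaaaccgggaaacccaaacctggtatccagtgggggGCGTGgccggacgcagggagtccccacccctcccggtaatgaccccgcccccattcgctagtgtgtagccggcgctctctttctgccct
Vegfb, chr19:6987652-6987901: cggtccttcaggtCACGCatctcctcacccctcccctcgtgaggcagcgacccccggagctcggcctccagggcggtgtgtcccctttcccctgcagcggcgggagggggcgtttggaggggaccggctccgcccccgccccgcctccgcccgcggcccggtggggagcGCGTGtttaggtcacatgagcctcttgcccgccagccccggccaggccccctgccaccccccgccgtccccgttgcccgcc

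The Flt1 window held the cAMP response element 81 bases before the start, a match found in 1.55% of 32851 windows of this length, with AGGAAG at 129 and 53 bases (29.5% of windows), TATAAA at 31 bases (12.4%) and GCGTG at 184 bases (28.2%). Kdr and Vegfb each held GCGTG 2 times and none of the other capitals. The motif of the muscle factor MEF2, found in 3.2% of windows, was in the window of no member. The E-box CANNTG, found in 66.2% of windows, had a match in Kdr and in Vegfb (not in capitals) and none in Flt1. GC content was 70.4% for Flt1, 61.6% for Kdr and 76.4% for Vegfb, with a median of 52.4% over all windows. A match is a run of letters and was not tested for binding.

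How the members varied together was examined with values centred within genotype, over the 19 tumors and with 100000 permutations within genotypes (two-sided, adjusted over the 8 pairs of Flt1 with another member). Flt1 rose with Vegfb, with Pearson's r = 0.64 (permutation p = 0.0031, adjusted p = 0.012) and Spearman's rho = 0.68 (permutation p = 8.4e-04, adjusted p = 0.0067), and r = 0.51 without the farthest tumors S56 and S60. Flt1 and Vegfc ran against each other, with r = -0.71 (permutation p = 9e-04, adjusted p = 0.0072) and rho = -0.54 (permutation p = 0.018, adjusted p = 0.073), and r = -0.51 without S46 and S56. After the muscle score was removed as well, r was 0.41 for Vegfb (permutation, adjusted p = 0.12) and -0.57 for Vegfc (permutation, adjusted p = 0.12), and rho was 0.16 and -0.17.

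Flt1 and Kdr had r = 0.61 (permutation p = 0.010, adjusted p = 0.028) and rho = 0.32 (permutation p = 0.19, adjusted p = 0.31). Without S46 and S56 their r was -0.07, so the relation rests on these 2 tumors, in which both receptors were at their highest of each genotype. For Flt4, Vegfa, Pgf, Nrp1 and Nrp2 the r with Flt1 was -0.36, 0.11, -0.29, 0.30 and -0.18, with adjusted permutation p from 0.24 to 0.64, and rho was -0.35, 0.19, -0.48, -0.13 and -0.07, with adjusted permutation p from 0.088 to 0.79. Without their 2 farthest tumors these 5 had r of -0.26, 0.12, -0.54, -0.50 and 0.16, so Nrp1 and Nrp2 turned in sign.

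The receptors were then set against the scores of other tissues, in 6 relations that were adjusted together. Kdr followed the endothelium score, with r = 0.86 (permutation p = 4e-05, adjusted p = 2.4e-04) and rho = 0.78 (permutation p = 2.8e-04, adjusted p = 0.0017), and r was 0.70 without S46 and S56. Flt1 followed it as well, with r = 0.78 (permutation p = 0.0011, adjusted p = 0.0034) and rho = 0.66 (permutation p = 0.0035, adjusted p = 0.0070), but r was 0.36 without S46 and S56, so this relation rests in part on these tumors. With the muscle score, Flt1 had r = 0.54 (permutation p = 0.018, adjusted p = 0.036) and rho = 0.67 (permutation p = 0.0019, adjusted p = 0.0056), and r = 0.38 without S48 and S56, and Kdr had r = -0.0023 (permutation p = 0.99, adjusted p = 0.99) and rho = -0.09 (permutation p = 0.73, adjusted p = 0.73), with r = -0.30 without these tumors.

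The log2 difference of Flt1 minus Kdr, which combines the Flt1 and Kdr slopes given above and was added after the data had been seen, is described with no p. Against the muscle score it had r = 0.65 and rho = 0.65, and r = 0.66 without S48 and S56. Its r was 0.63 within the 11 Rag2-/- and 0.69 within the 8 Rag2+/- tumors. Macrophage genes (9 genes, among them C1qa and C1qb of the complement system) had a score with r = -0.20 (permutation p = 0.39, adjusted p = 0.58) and rho = -0.22 (permutation p = 0.38, adjusted p = 0.45) to Flt1. To Kdr it had r = 0.16 (permutation p = 0.54, adjusted p = 0.64) and rho = 0.29 (permutation p = 0.23, adjusted p = 0.34). Without S46 and S56 these r were -0.62 and 0.50, so neither was stable to leaving these tumors out. Within the Rag2-/- and the Rag2+/- tumors r was 0.23 and -0.92 for Flt1 and 0.74 and -0.49 for Kdr.

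**Figure D5:**
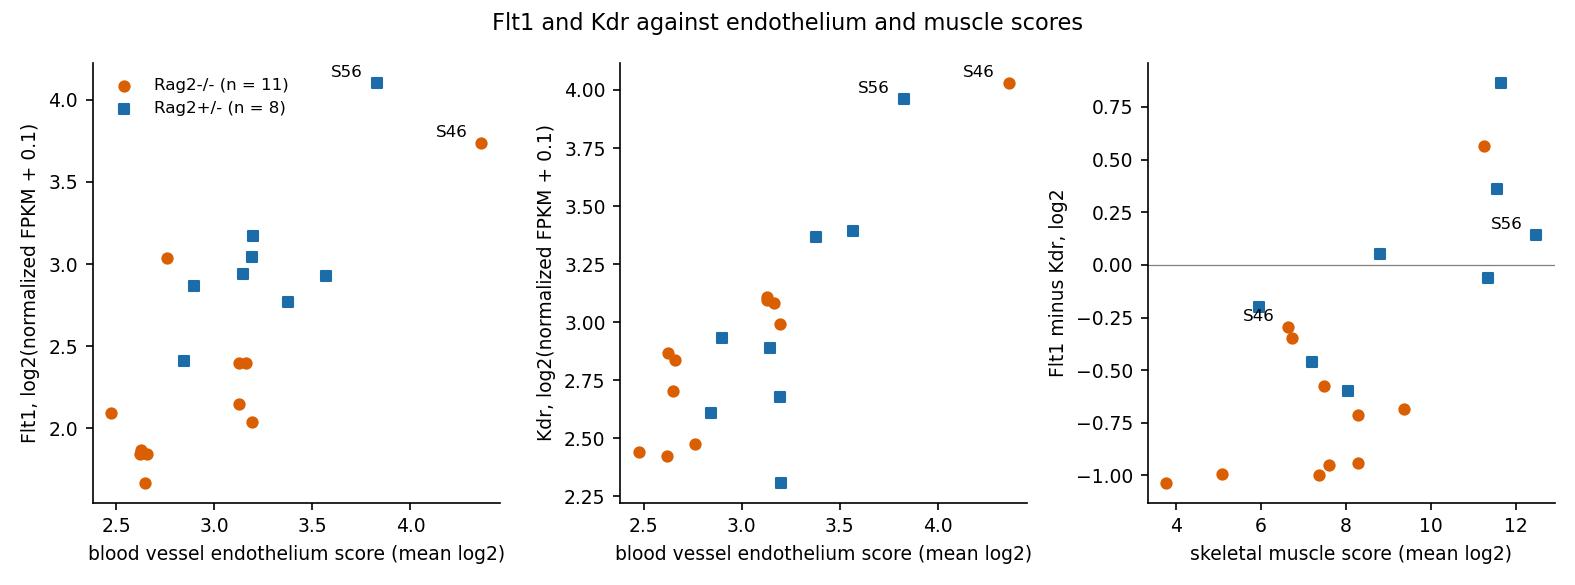
Flt1 (left) and Kdr (middle), as log2 normalized FPKM, against the endothelium score (mean log2 value of 18 genes), and Flt1 minus Kdr (right, log2) against the muscle score, in 11 Rag2-/- (orange circles) and 8 Rag2+/- tumors (blue squares). S46 and S56 stand at the upper right for both receptors, and 4 of the 5 highest values of Flt1 minus Kdr are in tumors with muscle scores above 11.

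Pairs among the other members are given as descriptions, with no p, since they were added after the data had been seen. Vegfa and a score of 14 hypoxia targets had r = 0.70 over the 19 tumors (0.76 without the 2 farthest), with 0.73 within Rag2-/- and 0.75 within Rag2+/- tumors. Flt4 and the lymphatic endothelium score of 6 genes had r = 0.73 (0.83 without the 2 farthest), and Vegfc and that score 0.49 (0.41). Vegfc ran with its receptor gene Flt4 at r = 0.76 and with Pgf at 0.72, and Kdr ran with Nrp1 at 0.63, which was 0.41 without S46 and S48. The tumors also shared differences in muscle and vessel content, whose part in these values was not tested.

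The 10 genes whose values were most like Flt1 over the 19 tumors, by Spearman's rho among 12798 genes tested that have a symbol, were Adgrf5 (0.94), Epb41 (0.94), Sephs2 (0.93), Rtl8a (0.92), Mmrn2 (0.91), Tex2 (0.91), 2310022A10Rik (0.91), As3mt (0.91), Ndufaf1 (0.90) and Cs (0.90). These values were not centred, so the ranking contains the genotype difference by which Flt1 was chosen. With values centred within genotype their rho was 0.69 to 0.87, and 1 of the 10 (Adgrf5, at rank 8) was within the first 10 and 4 within the first 100, while Cs was at rank 742. Mmrn2 is an endothelial extracellular matrix gene of the endothelium list, Adgrf5 is an adhesion receptor, Epb41 belongs to the membrane skeleton, and Cs, the citrate synthase, and Ndufaf1, an assembly factor of respiratory complex I, work in mitochondria. Among the 18 endothelium genes, Sox17 (0.86) and Pecam1 (0.84) followed, whereas Cdh5 was at 0.31, again without centring. Vegfb was at rank 1250 (0.67), Kdr at rank 4326 (0.28) and Vegfc at rank 9721 (-0.54).

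The endothelium genes themselves did not all move with muscle. In limma 2 of 18 rose with the muscle score, Vwf at 0.23 (adjusted p = 0.014) and Ptprb at 0.17 (adjusted p = 0.042), and 0 fell, beside 24.5% of all genes that rose and 30.3% that fell. The junction gene Cdh5 had a slope of -0.06 (limma adjusted p = 0.42) and Pecam1 0.04 (limma adjusted p = 0.55). By genotype, 0 of the 18 passed, against 0.0312% of all genes, and the differences of Pecam1, Cdh5, Vwf and Sox17 were -0.46, -0.37, -0.65 and -0.60. Of the 9 mural cell genes, 2 rose and 3 fell with muscle, against the same background of 24.5% and 30.3%, with Abcc9 at 0.58 (limma adjusted p = 5.45e-07) and Acta2 at -0.42 (limma adjusted p = 0.0021).

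The wider pathway was described from lists of 41 genes, of which 39 were tested. Between genotypes 0 of 39 passed, against 0.0312% of all genes, with 19 differences above 0 and 20 below. Of the 39, 3 rose and 13 fell with muscle, where 24.5% of all genes rose and 30.3% fell. Vegfd, the other ligand of FLT4, was at 4.02 ± 0.22 (SD, n = 11) with Rag2-/- and 3.31 ± 0.66 (SD, n = 8) with Rag2+/-. It differed by 0.71 (SE 0.21), with an unadjusted limma p of 0.0028 and an adjusted p of 0.30. Of the 7 tested genes of that list, 2 semaphorins rose with muscle in limma, Sema3b at 0.28 (adjusted p = 0.0018) and Sema3g at 0.22 (adjusted p = 0.027), and Sema3a, which binds NRP1, had -0.37 (adjusted p = 0.058). Of 4 plexins, the semaphorin receptors, 2 fell with muscle, Plxna1 at -0.17 (limma adjusted p = 3.3e-04) and Plxna3 at -0.32 (limma adjusted p = 0.0041).

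Of 17 signaling genes downstream of the receptors, 1 rose and 8 fell with the muscle score, beside 24.5% and 30.3% of all genes. The kinase gene Akt1 fell with a slope of -0.15 (limma adjusted p = 3.97e-05), and the gene that rose was Map2k1, at 0.09 (limma adjusted p = 0.014). By genotype the largest differences of this list were -0.39 for Prkca and 0.38 for Pik3r1, with limma adjusted p of 0.40 and 0.32. Of 11 genes that VEGF is known to induce in endothelium, 0 rose and 3 fell, against the same 24.5% and 30.3% of all genes. Those that fell were the tip cell gene Esm1 at -0.64, the peptide hormone gene Apln at -0.34 and the transcription factor gene Egr3 at -0.44 (limma adjusted p = 0.018, 0.0010 and 0.0011). Rcan1, a calcineurin regulator of this list, had the lowest unadjusted p by genotype of the 39, 7.44e-04, at -0.90 (SE 0.23, limma adjusted p = 0.30).

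Of the 14 hypoxia targets, 5 rose and 2 fell with muscle, against 24.5% and 30.3% of all genes. Those that rose were the glycolytic genes Pgk1, Ldha and Hk2 together with Bnip3 and Pdk1, and Hk2 and Ldha, with slopes of 0.36 and 0.34, are also genes that muscle expresses. Vegfa, a target of the same pathway, had the slope of 0.03 given above. By genotype 0 of the 14 passed, against 0.0312% of all genes, with a median difference of 0.05 against 0.06 over all genes. Lymphatic endothelium had 5 tested genes, 0 of them called by genotype (background 0.0312%) and 1 falling with muscle (Pdpn at -0.24, limma adjusted p = 0.0079), and its defining gene Prox1 was below the level tested, at -1.0 ± 0.73 (SD, n = 11) and -0.93 ± 0.90 (SD, n = 8).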

How the data were processed

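RNA of 19 primary p53/MCA sarcomas, 11 Rag2-/- and 8 Rag2+/-, was sequenced as paired ends from NEBNext Ultra II libraries. Per the study's methods, the authors aligned reads in Array Studio with its Omicsoft Sequence Aligner (at most 2 mismatches, mouse B38, Ensembl release 86) and deposited log2 values of upper-quartile normalized FPKM, to which 0.1 had been added. The submitters' processing notes also name Trimmomatic 0.36, STAR 5.5.4b, HTSeq and mm10, without saying for which files. Count models do not apply to such values. Of 48795 gene IDs, 48349 had a symbol. Authors' comparisons were not used.

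Genes whose mean log2 over the tumors exceeded 0 (12826) entered limma 3.58.1 (R 4.3.3), with the variance trended on intensity and p-values adjusted by Benjamini and Hochberg, called under 0.05, for genotype and for a slope on the skeletal muscle score with genotype as a term (12808 genes, without the 18 muscle genes). A score is the mean log2 value of a gene list. No p is given for Flt1 by genotype, since it was chosen by that difference. Members, lists and tests were chosen with earlier results of these data known. Relations across tumors used 100000 permutations within genotypes (Python 3.11.15, numpy 2.4.6, scipy 1.17.1), and neighbors in the order of levels an exact sign-flip permutation test. Scripts were tested on simulated data.

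Named genes are the 9 members, Rag2, Trp53, up to 4 genes of each list (the 2 of highest mean and the 2 of largest genotype difference) with any called by genotype, and the 10 genes most like Flt1. Xist, Igha, Tnfrsf18, Prox1 and the genes named for their slope on muscle were named after their values had been seen. Gene positions are from GENCODE vM21 and promoters from RefSeq, both on GRCm38. Depth was estimated from the steps of low values of genes with 1 transcript, in which 71.5% to 90.9% of low values were whole fragments within 0.05, with longest-transcript lengths, so fragment numbers are approximate. Tumors are separate mice, and the labels give no batch, sex or pairing. Alternatives were the 15 tumors of the study's per-tumor figure, each tumor left out, covariates (muscle, endothelium, Xist), pseudocounts of 1 and 0.01, filters, scalings and variance models.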

Additional observations from a re-analysis of the deposited data

Results flagged for a closer look

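Of the 9 members, 2 had a Rag2+/- tumor that stood apart from the other 7 of its group by Dixon's criterion, where the gap to the nearest tumor is divided by the range and compared with the critical value for 8 tumors. Flt1 was highest in S56, at 4.10, with a ratio of 0.549, and the next Rag2+/- tumor was at 3.17. Nrp1 was highest in S55, at 5.17, with a ratio of 0.603. Chance flags about 1 in 20 groups, and 9 groups were examined. The criterion was applied to the Rag2+/- group only. S46, the highest of the 11 Rag2-/- tumors for Flt1, Kdr, Nrp1 and Nrp2, was not tested in this way. For these genes, in that order, S46 was at 3.74, 4.03, 6.49 and 5.09, and the next Rag2-/- tumor at 3.04, 3.11, 5.35 and 4.86. S56 had the highest muscle score (12.48), the highest Vegfb (7.23) and the lowest Nrp2 (2.75) of all 19 tumors.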

How the results depend on the processing

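No paired analysis was possible because no tumor of either genotype is matched to another in the labels. Genes called by genotype numbered 4, and 10 in the 15 tumors, 2 with the muscle score as a covariate, 26 without a filter on low values and 0 with a mean log2 above 2 (limma, 1676 at an unadjusted p under 0.05), a filter that also left out Flt4 and Pgf. Leaving out each tumor gave 3 to 7, the highest without S56. None of the 8 members other than Flt1 was called under any alternative. Their difference changed sign for Kdr in the 15 tumors (0.0058), with the endothelium score (0.15) and without S56, with a range of -0.22 to 0.031 over left-out tumors, for Pgf without S54 (range -0.47 to 0.036), for Flt4 with the muscle score (-0.26), and for Vegfc with the muscle score (-0.32) and with Xist (-0.038). Flt1 kept its sign under all alternatives run.

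Of the members, 5 were called with the muscle score (54.8% of all genes), 2 in the 15 tumors (45% of genes) and 1 to 6 without each tumor. The lowest number was without S51 (45% of genes) and the highest without S46 (7672 of 12808 genes), where Nrp1 was called too. Pgf lost its call without any 1 of 8 tumors, without the genotype term (-0.13, limma adjusted p = 0.11), under quantile normalization (0.072) and with the median of the muscle list as score (0.058). Nrp1 was also called without the genotype term, with the endothelium score added and under quantile normalization, and Nrp2 without the genotype term. The slopes of Kdr, close to 0, turned positive without the genotype term (0.0097), with a pseudocount of 1 (4.0e-04), under quantile normalization (0.0046) and after a median shift (4.2e-04), and ran from -0.043 to 0.027 over left-out tumors, and that of Vegfa was -0.0046 under quantile normalization. Called pairs of Flt1 with a member numbered 3 by Pearson's r and 1 by Spearman's rho (Vegfb). With the muscle score removed, 1 was called by r (Kdr, whose r without that removal was -0.07 in the absence of S46 and S56). The causes of these changes were not tested. At the depth of S41, 5.19 M fragments against at least 24.65 M, low genes such as Pgf rest on few fragments (an estimated 31). Pgf rested on fewer still, 22, in S52, at a depth of 25.21 M.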
